A study of Mus musculus with 6 samples.

Results

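The mitochondrial ribosomal proteins are the protein subunits of the ribosome inside mitochondria. They were taken as every protein-coding gene of the deposited heart RNA-seq table whose name begins with Mrpl or Mrps followed by a digit, which gave 78 genes of 54352 rows in all. By name, 49 belong to the large subunit (Mrpl) and 29 to the small subunit (Mrps), and 47 have a bacterial homologue while 31 are specific to mitochondria. Of the 78 genes, 76 had a mean expression value of at least 5 over the libraries and were tested, against 13094 tested genes in all. Mrpl23 and Mrps36 were below that minimum.

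RNA of mouse heart tissue was sequenced after removal of ribosomal RNA in 6 libraries, with 2 in each of 3 groups. In both groups with type 2 diabetes (T2D), C57BL/6 mice were put on a diet that drew 60% of its calories from fat at 12 weeks of age and were injected once with streptozotocin, a toxin of pancreatic beta cells, at 75 mg/kg. The T2D dnMCUb group then received an adeno-associated virus (AAV) that encodes MCUb, part of the calcium uniporter in the inner mitochondrial membrane, with a FLAG tag and a pair of point mutations that make it dominant negative. The T2D empty vector group received the same kind of virus with no insert. The virus was injected by the jugular vein at 16 to 18 weeks from streptozotocin, and hearts were studied 4 weeks later, which was 5 to 6 months after induction. Control mice ate regular chow, were not made diabetic and received no vector, so that diet, streptozotocin and virus all separate them from both T2D groups. The age of the control mice and the promoter in the virus are not given in the labels, nor whether each library is a different animal. The p-values below therefore measure the spread between libraries.

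The mitochondrial ribosome translates the few proteins that mitochondrial DNA encodes, all of them parts of the respiratory chain or of ATP synthase. Its RNAs are transcribed from mitochondrial DNA, whereas its proteins are nuclear-encoded, made in the cytosol and imported. The heart, which relies on oxidative phosphorylation, needs both genomes to supply parts of the same complexes, and in humans mutations of MRPL3, MRPL44, MRPS14 and MRPS22 are known causes of cardiomyopathy.

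Values are regularized log (rlog) values, a log2 scale on which the authors' processing draws each library's value towards the gene's mean. Among the tested members, an rlog difference was at the median 0.51 of the log2 fold change in the authors' deposited table, so rlog differences understate fold changes. Counts were not part of the table, and library depth is therefore unknown. Mcub itself had rlog 5.62 and 5.47 in T2D dnMCUb, 5.48 and 5.46 in T2D empty vector libraries, and 5.42 and 5.47 in control libraries. T2D dnMCUb minus T2D empty vector was 0.08 ± 0.05 (SE; limma adjusted p = 0.888), so Mcub did not separate the vectors on this scale. Its level was near the minimum of 5, where rlog values are drawn strongly to their mean. Whether reads of the virus insert were counted for Mcub is not given. The names dnMCUb and empty vector below are those of the labels. Heart muscle markers were abundant in all 6 libraries, with a summed level of 8 genes between 19.99 and 20.36 (log2 of summed linearised rlog).

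The genes are spread over 17 chromosomes, with at most 11 on any of them. Promoters are shown here because the nuclear genes for mitochondrial proteins are known to share binding motifs for the activators NRF1, the ETS-family factor GABP (NRF2) and YY1. RefSeq promoters (GRCm38.p6, 250 bases before to 50 after the transcription start) were found for 69 members, 75 promoters in all, and both strands were searched. The NRF1 motif, GCGCA and GCGC with any base between them, was in 13 of the 75 (17.3%), against 4.60% of 32851 promoters of all genes and 9.80% of the promoters of tested genes. The ETS letters CCGGAAG were in 26 (34.7%), against 8.86% of all and 17.0% of tested promoters. The YY1 letters AANATGGCG were in 11 (14.7%), against 2.38% of all and 5.03% of tested promoters. A match describes the sequence and does not show that a factor binds there.

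The promoters below are examples with a match, from members named in the results. Other members named there, among them Mrpl47, Mrps7, Mrpl20, Mrpl46 and Mrps31, had no match to any of these motifs. Each match is in capitals and everything else in lower case, read 5′ to 3′ on the gene's strand (GRCm38.p6). Mrpl45 (chr11:97315466-97315765, plus strand) has 3 NRF1 matches and Mrpl44 (chr1:79775768-79776067, plus strand) has 1. Mrpl42 (chr10:95501900-95502199, minus strand) has a YY1 match, Mrps18a (chr17:46110754-46111053, plus strand) an ETS match followed by a YY1 match, and Mrps11 (chr7:78782881-78783180, plus strand) a YY1 match in the reverse direction. No match overlaps another in these promoters.
Mrpl45: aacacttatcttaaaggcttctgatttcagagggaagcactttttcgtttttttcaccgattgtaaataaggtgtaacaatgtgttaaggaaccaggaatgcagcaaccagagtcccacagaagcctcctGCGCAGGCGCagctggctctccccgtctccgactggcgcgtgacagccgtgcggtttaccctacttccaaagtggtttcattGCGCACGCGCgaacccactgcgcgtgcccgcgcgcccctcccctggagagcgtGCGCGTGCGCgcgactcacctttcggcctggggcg
Mrpl44: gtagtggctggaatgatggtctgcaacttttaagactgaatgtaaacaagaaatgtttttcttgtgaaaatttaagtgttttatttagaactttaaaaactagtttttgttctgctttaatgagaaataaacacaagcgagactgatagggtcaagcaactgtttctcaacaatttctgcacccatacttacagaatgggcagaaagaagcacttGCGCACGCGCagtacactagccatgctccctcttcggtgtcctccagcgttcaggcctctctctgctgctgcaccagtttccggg
Mrpl42: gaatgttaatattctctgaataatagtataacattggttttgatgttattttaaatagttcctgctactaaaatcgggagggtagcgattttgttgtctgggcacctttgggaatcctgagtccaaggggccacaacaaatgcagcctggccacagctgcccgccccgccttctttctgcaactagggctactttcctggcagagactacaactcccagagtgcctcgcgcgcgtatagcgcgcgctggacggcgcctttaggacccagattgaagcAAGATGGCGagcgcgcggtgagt
Mrps18a: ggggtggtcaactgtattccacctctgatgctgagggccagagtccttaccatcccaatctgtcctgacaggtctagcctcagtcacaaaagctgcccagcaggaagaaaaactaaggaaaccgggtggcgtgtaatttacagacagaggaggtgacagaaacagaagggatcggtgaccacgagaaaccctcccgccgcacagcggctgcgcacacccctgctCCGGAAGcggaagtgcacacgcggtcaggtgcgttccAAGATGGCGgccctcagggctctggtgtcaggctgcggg
Mrps11: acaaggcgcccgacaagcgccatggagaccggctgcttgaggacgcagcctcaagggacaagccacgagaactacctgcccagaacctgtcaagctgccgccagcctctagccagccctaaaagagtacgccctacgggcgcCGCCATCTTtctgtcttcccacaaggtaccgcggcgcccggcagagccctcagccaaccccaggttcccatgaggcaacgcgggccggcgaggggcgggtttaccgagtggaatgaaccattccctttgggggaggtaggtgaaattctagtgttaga
Mrps11 lies head to head with Mrpl46 on the opposite strand, and 141 bases of their promoter windows are the same DNA.

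Mitochondrial ribosomal protein genes were expressed in every library at moderate to high levels. Mean rlog of the tested genes ran from 5.38 for Mrpl48 to 11.48 for Mrpl42, with a median of 9.35. Per kilobase of transcript (mean rlog minus log2 of the length in kb), Mrpl42 was again highest at 12.09 and Mrpl48 lowest at 4.49, around a median of 9.18. Mrpl42 and Mrpl48 both encode large-subunit proteins. A gene's values differed little among libraries: the range over the 6 libraries had a median of 0.17 for members, against 0.12 for all tested genes, and went from 0.04 to 0.34 among members.

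Members differed between libraries in a shared direction. Relative to each gene's own mean over 6 libraries, the members averaged -0.09 in T2D dnMCUb 1 and 0.007 in T2D dnMCUb 2, 0.007 and -0.02 in the T2D empty vector libraries, and 0.05 and 0.05 in both control libraries. The control libraries were thus the highest, the first T2D dnMCUb library stood lowest, and the other 3 T2D libraries lay between. T2D dnMCUb 1 held the lowest value of 64 of 76 members (84.2%), against 27.8% of all tested genes. The highest value was in control 1 for 30 members (39.5%, against 18.6% of all tested genes) and in control 2 for 29 (38.2%, against 15.6%). In T2D dnMCUb, library 1 was below library 2 for 71 of 76 members, with a median gap of -0.10, whereas the same order held for 54.3% of all tested genes. T2D empty vector 1 was below library 2 for 23 members, against 48.3% of all tested genes, and control 1 was below control 2 for 42, against 48.9%. Median differences of the members that involve T2D dnMCUb are therefore given with and without each of its libraries.

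**Figure D1:**
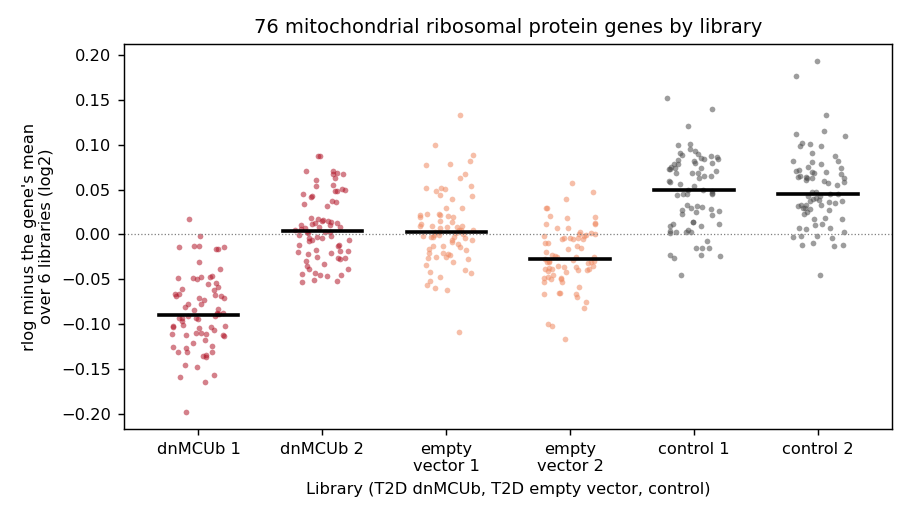
Each point is 1 of 76 mitochondrial ribosomal protein genes, as its rlog value minus its mean over 6 libraries (log2, vertical axis), in T2D dnMCUb, T2D empty vector and control libraries (horizontal axis); the black line is the median. The points of T2D dnMCUb 1 lie around -0.09, those of the other 3 T2D libraries near 0 and those of both control libraries around 0.05.

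T2D dnMCUb 1 also had the highest levels of markers of several other cell types. The summed level of the atrial myocyte markers was 12.48 in T2D dnMCUb 1, against 10.74 to 11.75 in the other 5 libraries, and those of the fibroblast markers (15.21 against 14.64 to 14.94) and smooth muscle markers (13.29 against 12.30 to 12.81) were also highest there. So were the macrophage markers, at 12.31 against 12.06 to 12.16. Its cardiomyocyte markers were the lowest, at 19.99 against 20.18 to 20.36 in the others. No marker of these lists was at 0 in all libraries. In heart tissue, fewer cells of a type and less RNA per cell cannot be told apart, and the part of tissue makeup in the results below was not tested.

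T2D dnMCUb against control was the widest of the contrasts for these genes. Of 76 tested members, 73 were lower in T2D dnMCUb and 3 higher, with a median difference of -0.08, against -0.002 over all 13094 genes. In 45 members both T2D dnMCUb libraries lay below both control libraries, which was so for 22.7% of all genes, and in 0 members above, against 20.2%. At an unadjusted limma p under 0.05, 15 members were lower and 0 higher, where 5.54% of all genes were lower and 5.89% higher. After Benjamini-Hochberg adjustment limma called 9 genes (0.0687%), none of them a member. Of rows with a fold change in the authors' deposited table, 0.357% passed an adjusted p of 0.05, again no member, and the smallest adjusted p of a member was 0.361, for Mrpl45. At an unadjusted p under 0.05 the authors' deposited table had 2 members lower, Mrpl44 and Mrpl45, and 0 higher, where 2.34% of tested genes were lower and 3.33% higher.

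Mrpl45, whose protein sits at the exit of the nascent-chain tunnel and tethers the ribosome to the inner membrane, had the lowest difference of all members. Its rlog was 10.20 and 10.33 in T2D dnMCUb, 10.37 and 10.30 in T2D empty vector libraries, and 10.45 and 10.54 in control libraries. All 4 T2D libraries were below both control libraries, and the T2D groups overlapped each other. T2D dnMCUb minus control was -0.23 ± 0.06 (SE; limma adjusted p = 0.230), and the authors' deposited table gave a log2 fold change of -0.39.

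Among the other large-subunit genes, Mrpl44, a protein with a ribonuclease III fold that is tied to human cardiomyopathy, had rlog 9.60 and 9.73 in T2D dnMCUb, against 9.83 and 9.84 in control libraries. The groups did not overlap, and the difference was -0.17 ± 0.06 (SE; limma adjusted p = 0.326). Mrpl47, the counterpart of bacterial L29, had 8.98 and 9.08 in T2D dnMCUb, against 9.15 and 9.19 in control libraries, a difference of -0.14 ± 0.05 (SE; limma adjusted p = 0.324). Mrps18a and Mrps30 carry small-subunit names, but their proteins are known to sit in the large subunit. Mrps18a was at 9.68 and 9.70 in T2D dnMCUb, against 9.81 and 9.83 in control libraries, with close libraries in both groups (-0.13 ± 0.04 SE; limma adjusted p = 0.319). Mrps30 was at 9.30 and 9.39 in T2D dnMCUb, against 9.50 and 9.50 in control libraries (-0.16 ± 0.05 SE; limma adjusted p = 0.336).

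In the small subunit, Mrps7, which contacts the small ribosomal RNA in the head, was at 9.93 and 10.05 in T2D dnMCUb, against 10.15 and 10.14 in control libraries. Its libraries did not overlap, and the difference was -0.16 ± 0.05 (SE; limma adjusted p = 0.319). Mrps22, also tied to human cardiomyopathy, was at -0.13 ± 0.06 (SE; limma adjusted p = 0.438) and Mrps14 at -0.09 ± 0.05 (SE; limma adjusted p = 0.503). Mrps34, which supports the stability of the small ribosomal RNA, was at -0.09, Mrps18b at -0.11 and Mrps12, a protein of the decoding centre, at -0.06. Mrps18c, the remaining relative of Mrps18a and Mrps18b, was at 0.01, one of the 3 members that were not lower, and the others were Mrps6 at 0.01 and Mrpl48 at 0.01.

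The stalk that recruits translation factors is built of Mrpl10 and Mrpl12, of which Mrpl12 also binds the mitochondrial RNA polymerase. Mrpl10 was at 9.89 and 10.05 in T2D dnMCUb, against 10.07 and 10.04 in control libraries (-0.08 ± 0.06 SE; limma adjusted p = 0.595), and its groups overlapped. Mrpl12 was at 10.74 and 10.89, against 10.90 and 10.83 in control libraries (-0.05 ± 0.07 SE; limma adjusted p = 0.826), and also overlapped. Mrpl3, a core protein of the large subunit, was at -0.07 ± 0.07 and Mrpl58, which frees stalled ribosomes, at -0.08 ± 0.06 (SE). None of these 4 differences exceeded 2 standard errors.

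Both subunits and both evolutionary classes had similar medians in T2D dnMCUb minus control. Subunits were split by name, so that Mrps18a and Mrps30 count with the small subunit here. The large subunit had 47 of 48 genes lower (median -0.08) and the small subunit 26 of 28 (median -0.09). Members with a bacterial homologue had 44 of 46 lower (median -0.08), and mitochondria-specific ones 29 of 30 (median -0.08). By promoter, the median was -0.07 for the 13 tested members with an NRF1 match and -0.08 for the 54 with a promoter and none. It was -0.07 for 26 members with an ETS match and -0.08 for 41 without. These are descriptions, and no test of the splits was made.

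The extent of the T2D dnMCUb difference depended on its first library. Without T2D dnMCUb 1, 63 members were lower than control and 13 higher, with a median of -0.04. Without T2D dnMCUb 2, 75 were lower, the median was -0.14, and limma called 4 members (5.26%) among 743 genes (5.67%), a share of members near that of all genes. These were Mrpl45 at -0.30 (adjusted p = 0.0316), Mrpl44 at -0.24 (adjusted p = 0.0427), Mrps7 at -0.21 (adjusted p = 0.0432) and Mrpl9 at -0.21 (adjusted p = 0.0488), with the lone library assumed to vary like the other groups. Without control 1 or control 2 the median was -0.09 in either case.

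**Figure D2:**
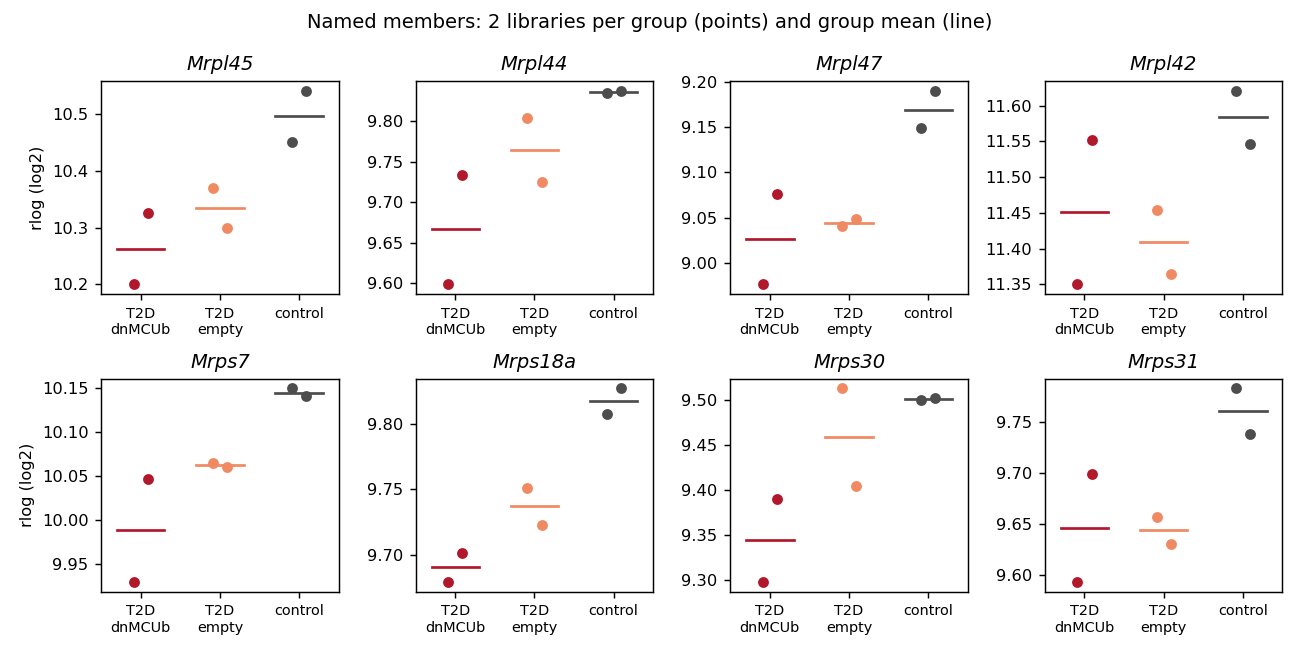
rlog (log2, vertical axis) of 8 genes in T2D dnMCUb, T2D empty vector and control hearts (horizontal axis); points are libraries (2 per group), lines are group means, and each panel has its own scale that does not start at 0. In each panel the mean of both T2D groups lies below the control mean, and for Mrpl45 the control libraries are at 10.45 and 10.54, above all 4 T2D libraries. The genes were taken from those with the smallest limma p on the lower side of a contrast with control. Lower T2D means follow in part from that choice.

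T2D empty vector against control holds no dnMCUb library, but it shares its control libraries with the contrast above, so the values of both stand side by side and are not independent. In it, 69 of 76 members were lower in T2D empty vector and 7 higher, with a median of -0.06, against -0.002 over all genes. In 43 members the T2D empty vector libraries lay below both control libraries, against 22.5% of all genes, and in 0 above, against 19.9%. At an unadjusted limma p under 0.05, 5 members were lower (2.87% of all genes were) and 0 higher (3.26%). After adjustment limma called 0 genes (0%). Of rows with a fold change in the authors' deposited table, 0.255% passed, with no member among them and the smallest member's adjusted p at 0.427, for Mrpl42. At an unadjusted p under 0.05 the authors' deposited table had 3 members lower, Mrpl42, Mrpl45 and Mrps35, and 0 higher, where 2.08% of tested genes were lower and 2.25% higher. The median ran from -0.04 to -0.08 when each library of either group was left out in turn, and 62 to 70 members were lower.

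Among members whose groups did not overlap, the smallest p here belonged to Mrpl45, Mrpl47, Mrpl20, Mrpl46, Mrps31 and Mrpl42. Mrpl45 was at -0.16 ± 0.06 (SE; limma adjusted p = 0.805), from the values given above. Mrpl47 was at 9.04 and 9.05 in T2D empty vector, against 9.15 and 9.19 in control libraries (-0.13 ± 0.05 SE; limma adjusted p = 0.805). Mrpl42, the most highly expressed member, was at 11.45 and 11.36 in T2D empty vector, against 11.62 and 11.55 in control libraries (-0.17 ± 0.08 SE; limma adjusted p = 0.805), but at 11.35 and 11.55 in T2D dnMCUb, which overlapped both other groups. Mrps31, specific to mitochondria, was at 9.66 and 9.63 in T2D empty vector, against 9.78 and 9.74 in control libraries (-0.12 ± 0.05 SE; limma adjusted p = 0.805). Mrpl20, with a bacterial homologue, was at -0.10 ± 0.04 and Mrpl46 at -0.11 ± 0.04 (SE), both with a limma adjusted p of 0.805. Mrps11, which shares promoter DNA with Mrpl46, was at -0.02 in the same comparison.

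Genes tied to cardiomyopathy did not stand together in T2D empty vector minus control. Mrps22 was at -0.09, Mrpl44 at -0.07, Mrps14 at -0.04 and Mrpl3 at 0.02. Of the others with a set role, Mrps34 and Mrpl58 were both at -0.10, Mrps7 and Mrps18a both at -0.08, Mrpl10 at -0.07, Mrpl12 at -0.06, Mrps12 and Mrps18b both at -0.04 and Mrps18c at -0.03. All 7 members that were not lower had small positive values, the highest being 0.04 for Mrpl28.

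The differences from control were somewhat lower for highly expressed members: Spearman's rho between mean rlog and the difference, over 76 members that share libraries, was -0.44 in T2D dnMCUb and -0.34 in T2D empty vector. As rlog values of weakly expressed genes are drawn more strongly to their mean, this trend cannot be told apart from the transformation.

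**Figure D3:**
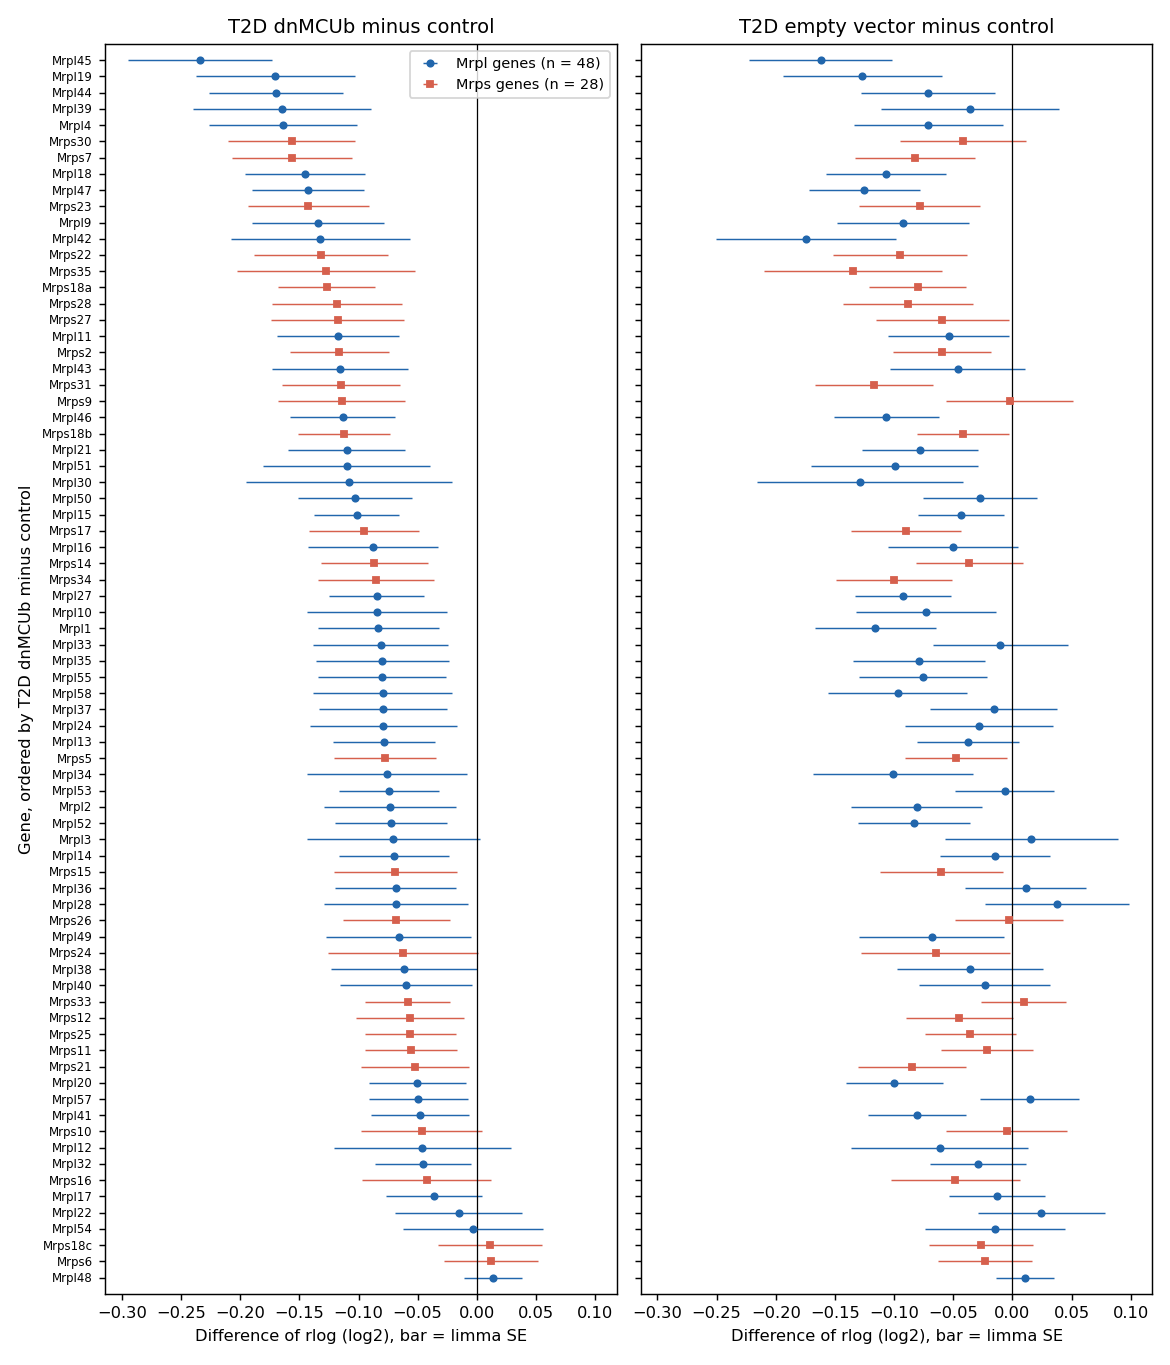
Difference of rlog from control (log2, horizontal axis) for each of 76 members (vertical axis, ordered by T2D dnMCUb minus control), for T2D dnMCUb on the left and T2D empty vector on the right; bars are limma standard errors, and colours separate Mrpl from Mrps genes. The points lie left of 0 for 73 members in T2D dnMCUb and 69 in T2D empty vector, with Mrpl45 at -0.23 and -0.16.

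T2D dnMCUb against T2D empty vector compares, by the labels, dominant negative MCUb with the empty vector in diabetic hearts, and members differed least here. It shares libraries with both contrasts above. Of 76 members, 54 were lower in T2D dnMCUb and 22 higher, with a median of -0.03, against -0.0005 over all genes. In 18 members the T2D dnMCUb libraries lay below both T2D empty vector libraries, against 16.5% of all genes, and in 2 above, against 15.6%. No member had an unadjusted limma p under 0.05 (2.53% of all genes were lower at that level, 3.12% higher), and limma called 0 genes after adjustment (0%). Of rows with a fold change in the authors' deposited table, 0.0311% passed, none a member, and 0 members had an unadjusted p under 0.05 (0.535% of tested genes lower, 1.28% higher). The direction rested on T2D dnMCUb 1: without it the median was 0.01, with 43 members higher and 33 lower, and without T2D dnMCUb 2 it was -0.08, with 72 lower.

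Among members whose groups did not overlap, the 6 with the smallest p on the lower side were Mrps30, Mrps9, Mrps33, Mrps18b, Mrpl28 and Mrpl15. Mrps30 was at 9.30 and 9.39 in T2D dnMCUb, against 9.51 and 9.40 in T2D empty vector libraries, a gap between the nearest libraries that was small beside the spread within groups (-0.11 ± 0.05 SE; limma adjusted p = 0.871). Mrps9, a small-subunit protein with a bacterial homologue, was at 10.20 and 10.30 in T2D dnMCUb, against 10.40 and 10.32 in T2D empty vector (-0.11 ± 0.05 SE; limma adjusted p = 0.871). Mrps33 was at -0.07, Mrps18b at -0.07, Mrpl28 at -0.11 and Mrpl15 at -0.06. The 2 members whose T2D dnMCUb libraries both lay above were Mrpl20, at 9.10 and 9.07 in T2D dnMCUb, against 9.03 and 9.05 in T2D empty vector (0.05 ± 0.04 SE; limma adjusted p = 0.916), and Mrpl41, at 0.03 ± 0.04 (SE). The difference of Mrpl41 lay within its standard error and that of Mrpl20 was below 2 standard errors.

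Of the genes with a set role, Mrpl44 was at -0.10, Mrpl3 at -0.09, Mrps7 at -0.07, Mrps14 and Mrps18a both at -0.05 and Mrps22 and Mrps18c at -0.04 and 0.04 in T2D dnMCUb minus T2D empty vector. Mrpl10 and Mrps12 were both at -0.01, Mrps34 at 0.01 and Mrpl12 and Mrpl58 both at 0.02. None of these exceeded 2 standard errors.

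Genes that work with the mitochondrial ribosome were also mostly below control. The 5 ribosome proteins with other names (Dap3, Ptcd3, Chchd1, Aurkaip1 and Gadd45gip1) were all lower in T2D dnMCUb (median -0.11) and all lower in T2D empty vector (median -0.10). Of 24 ribosome assembly and rRNA modification genes, 23 were lower in T2D dnMCUb (median -0.06) and 20 in T2D empty vector (median -0.04). Of 16 translation factors, 15 were lower in each (medians -0.11 and -0.06), among them Taco1, an activator of the translation of cytochrome oxidase, at 9.01 and 9.07 in T2D dnMCUb, 9.11 and 9.10 in T2D empty vector libraries and 9.23 and 9.21 in control libraries. Its difference from control was -0.18 ± 0.04 in T2D dnMCUb (SE; limma adjusted p = 0.191) and -0.11 ± 0.04 in T2D empty vector (SE; limma adjusted p = 0.804). All 20 aminoacyl-tRNA synthetase genes were lower in T2D dnMCUb (median -0.09) and 19 in T2D empty vector (median -0.04), with Yars2, the tyrosine enzyme, at -0.20 and -0.12. No gene of these lists passed limma's adjusted p in any comparison. Here too T2D dnMCUb 1 stood below T2D dnMCUb 2. Relative to each gene's own mean, the translation factors averaged -0.10 and 0.01 in these libraries, the synthetases -0.08 and 1.6e-05, and the assembly genes -0.06 and 0.001. The control libraries averaged 0.07 and 0.04, 0.05 and 0.05, and 0.04 and 0.03. The T2D dnMCUb counts of these lists were not recomputed without its first library.

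The activators whose motifs were searched differed in direction. Nrf1 was at 0.007 in T2D dnMCUb and -0.05 in T2D empty vector, each minus control, Gabpa at -0.08 and -0.02, and Yy1 at 0.08 and 0.02, none past limma's adjusted threshold. Gabpa was thus below control in both T2D groups, with libraries that overlapped control in neither, while the T2D empty vector libraries of Yy1 overlapped control. Esrra, another regulator of mitochondrial genes, was at -0.11 and -0.07 (limma adjusted p = 0.516 and 0.877). All 4 of its T2D libraries were below both control libraries, as in 11.9% of all genes. Of the 8 regulators tested, 4 were lower and 4 higher in T2D dnMCUb, and 3 lower and 5 higher in T2D empty vector. Ppargc1a, the coactivator of mitochondrial biogenesis, was at 10.01 and 10.34 in T2D dnMCUb, 10.26 and 10.22 in T2D empty vector libraries and 10.26 and 10.20 in control libraries, so that its T2D dnMCUb libraries lay on both sides of all others. The ribosomal RNAs of the mitochondrial ribosome, mt-Rnr1 and mt-Rnr2, were at 0.25 ± 0.17 and 0.02 ± 0.29 (SE) in T2D dnMCUb minus control. Those libraries had been depleted of ribosomal RNA, which limits what these 2 values show.

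Nuclear genes for respiratory chain and ATP synthase subunits were shifted by about as much as the ribosomal ones on the rlog scale. Of 79 tested, 74 were lower in T2D dnMCUb than in control (median -0.09) and 71 in T2D empty vector (median -0.05). In the authors' log2 fold changes the medians of the respiratory genes were -0.13 and -0.08, against -0.16 and -0.12 for mitochondrial ribosomal protein genes. By library, the respiratory genes averaged -0.13 in T2D dnMCUb 1 but 0.06 in T2D dnMCUb 2, and 0.08 and 0.01 in control libraries. In T2D dnMCUb against control, 12 of the 79 had groups that did not overlap on the lower side, beside 45 of the 76 mitochondrial ribosomal protein genes and 22.7% of all genes. In T2D empty vector against control the counts were 32 of 79 and 43 of 76, beside 22.5% of all genes. Cytosolic ribosomal protein genes took another course: 48 of 55 were higher in T2D dnMCUb when set against T2D empty vector (median 0.09), 47 were lower in T2D empty vector than in control (median -0.05), and 40 were higher in T2D dnMCUb than in control (median 0.03). These counts are descriptions of lists, and no test between lists was made.

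Heart muscle markers also went with the members. All 8 cardiomyocyte markers were lower in T2D dnMCUb than in control (median -0.20) and 7 of 8 in T2D empty vector (median -0.14), none past limma's adjusted threshold. Fibroblast markers had group means above control for 6 of 6 genes in each T2D group (medians 0.23 and 0.10), but this rested on 1 library per group. Relative to each gene's own mean, they averaged 0.34 for T2D dnMCUb 1 but -0.12 for T2D dnMCUb 2. T2D empty vector 1 was at -0.17 with library 2 at 0.16, whereas control 1 stood at -0.08 with control 2 at -0.14. Libraries lay apart from control on the higher side for 2 of 6 genes with T2D dnMCUb, against 0 with T2D empty vector. The part of these shifts in the lower level of mitochondrial ribosomal protein genes was not tested.

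**Figure D4:**
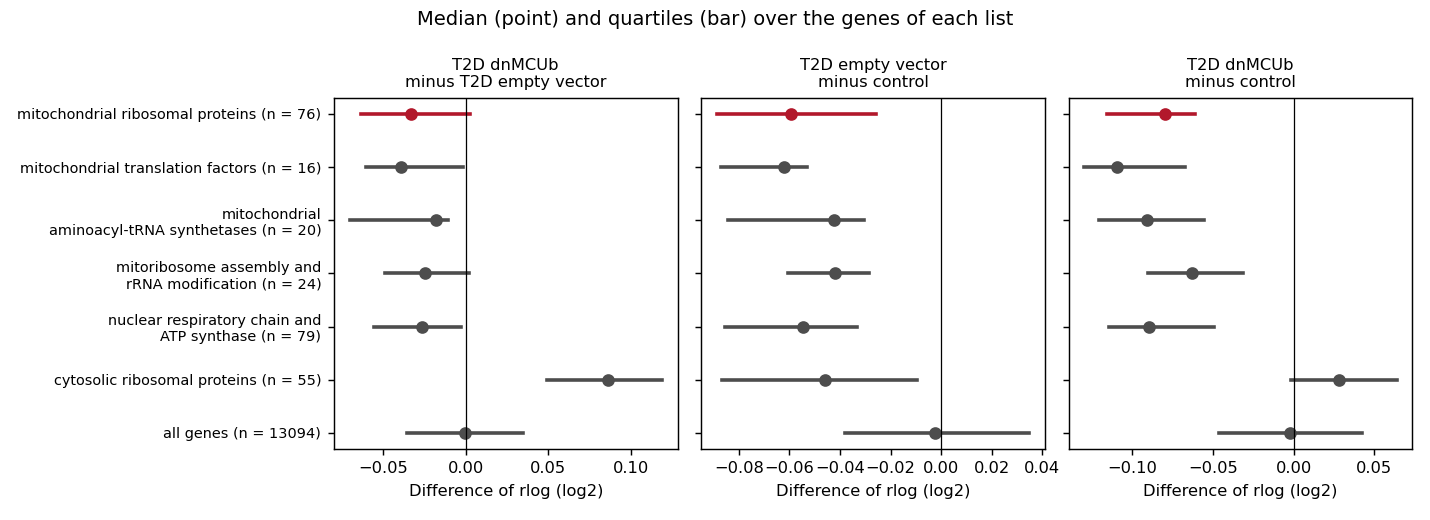
Median (point) and quartiles (bar) of the rlog difference (log2, horizontal axis) over the genes of each list (vertical axis), in 3 comparisons from left to right, each panel with its own scale. Mitochondrial ribosomal protein genes (red) have medians of -0.03, -0.06 and -0.08, and cytosolic ribosomal protein genes 0.09, -0.05 and 0.03.

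Some members share sequence with other genes, which bears on how reads could be assigned. The listed transcripts of 73 of 78 members were found in GENCODE M21 at the same coordinates. Of these, 34 share at least 1 window of 50 bases with another gene on the same strand and 39 share none. Mrpl53 shares 100% of its windows with Gm42688, an annotated gene that overlaps it on the same strand, so no window of the listed Mrpl53 transcript is its own. Mrpl23, whose protein sits at the tunnel exit, had a mean rlog of 2.67 while its processed pseudogene Mrpl23-ps1 had 8.37, and 92.5% of the pseudogene's windows occur in Mrpl23. Of the windows of the listed Mrpl23 transcript, 76.4% are shared with another gene, so reads of Mrpl23 and its pseudogene could be counted for each other. Mrpl48 was at 5.38 and Mrpl48-ps at 7.34, with 44.6% of the pseudogene's windows in Mrpl48.

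Mrps36 is named as a ribosomal protein, but its product is now known as a subunit of the oxoglutarate dehydrogenase complex. It had rlog 4.47 and 4.47 in T2D dnMCUb, 4.54 and 4.50 in T2D empty vector libraries and 4.47 and 4.49 in control libraries, beside 4.65 for Mrps36-ps1 and 4.08 for Mrps36-ps2 on average, of whose windows 61.1% and 59.2% are in Mrps36. Mrpl23 had 2.67 and 2.67 in T2D dnMCUb, 2.67 and 2.65 in T2D empty vector libraries and 2.68 and 2.70 in control libraries. Both genes were flat over the libraries on the rlog scale, where low values are drawn strongly to their mean. The authors' deposited table gave Mrps36 log2 fold changes of -0.85 in T2D dnMCUb over T2D empty vector, -0.24 in T2D dnMCUb over control and 0.61 in T2D empty vector over control, none of which passed.

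**Figure D5:**
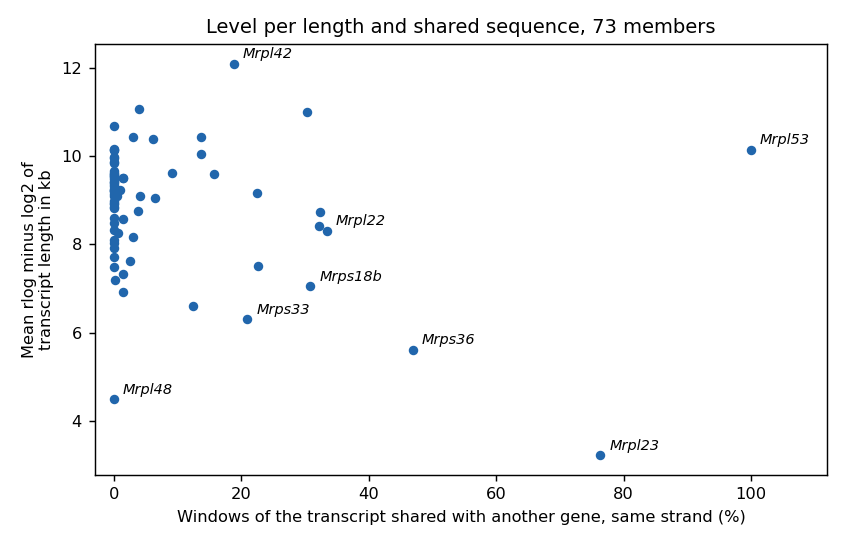
Mean rlog per kilobase (rlog minus log2 of transcript length in kb, vertical axis) against the share of 50-base windows that occur in another gene on the same strand (%, horizontal axis) for the 73 members found in the annotation. Mrpl53 stands at 100% and Mrpl23 at 76.4%, with Mrpl23 the lowest in level.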

How the data were processed

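Heart RNA libraries were depleted of ribosomal RNA and made with a stranded kit, per the labels' protocols. DESeq2, STAR 2.5.2a and bcl2fastq 2.20.0.422 are listed in the submitters' processing notes, as are the builds mm10, hg38 and GRCm38, with no role for any of them. How reads were counted, and with which strand setting, is not given in the sources used here. The authors deposited rlog values on the log2 scale for 6 libraries, and log2 fold changes with p-values and adjusted p-values for 3 comparisons. No value column was without a sample label (0 unused). Genes whose mean rlog reached 5 were fitted together over all 3 groups with limma 3.58.1 in R 4.3.3 (variance trend, 3 residual and 4.6 prior degrees of freedom), and p-values were adjusted by Benjamini-Hochberg over all 13094 genes at 0.05. The fit was also run on simulated data with independent noise per gene and added changes larger than any member difference in this fit. That run does not bear on differences of the size seen here, or on shifts shared by many genes of a library. No count model was run, since no counts were given.

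Members and lists were chosen with earlier results of these data known. Named members were those past an adjusted p of 0.05, up to 6 in each direction with the smallest p among those whose groups did not overlap, those below the expression minimum, and a fixed set with a known role, with up to 3 genes for each further list. Promoters came from RefSeq (GRCm38.p6), and shared windows of 50 bases from GENCODE M21. Alternatives were no expression minimum, a minimum of 8, no variance trend, libraries shifted to 1 median, only the 2 groups compared, a replicate block, and each library left out in turn.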

Additional observations from a re-analysis of the deposited data

How the results depend on the processing

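With 2 libraries per group and no counts, small differences in these genes could not be separated from library spread. The count of genes called in T2D dnMCUb against control, 9 in the fit reported, was 0 with no expression minimum, with a minimum of 8, without the variance trend, with libraries shifted to 1 median, with only the 2 groups compared, and with the replicate block. Leaving out each library in turn it ran from 0 to 743. In T2D empty vector against control, 30 genes were called when only the 2 groups compared were fitted, and 0 to 1 without each library in turn. In T2D dnMCUb against T2D empty vector 0 to 14 were called without each library. Libraries with the same replicate number did not vary together. Over all genes, deviations of the first libraries from their group means correlated at -0.51 between T2D dnMCUb and T2D empty vector. The values were -0.09 for T2D empty vector and control, and -0.01 for T2D dnMCUb and control. With 2 libraries per group the deviations mirror each other, so the -0.51 means that T2D dnMCUb 1 varied with T2D empty vector 2. What these libraries share was not tested. The replicate block called 0 genes in each of the 3 comparisons. The median over members ran from -0.0793 to 0.0100 without each library in T2D dnMCUb against T2D empty vector, and from -0.135 to -0.0403 in T2D dnMCUb against control. After shifting libraries to 1 median, 59, 69 and 73 of 76 members were lower in T2D dnMCUb against T2D empty vector, T2D empty vector against control, and T2D dnMCUb against control. Of 546 values of the named members under alternatives, 523 kept their direction and side of the threshold, 20 reversed and 3 passed it, and the reversals and passes all came from leaving out a library. In T2D dnMCUb minus T2D empty vector, leaving out each library in turn gave -0.0911 to 0.0695 for Mrpl10, -0.0680 to 0.0989 for Mrpl12, -0.0442 to 0.0212 for Mrps12, -0.185 to 0.0128 for Mrpl3, -0.108 to 0.0346 for Mrps22, -0.0279 to 0.0569 for Mrps34 and -0.0658 to 0.101 for Mrpl58. In T2D empty vector minus control it gave -0.145 to 0.0220 for Mrpl12, -0.0833 to 0.115 for Mrpl3 and -0.0541 to 0.00143 for Mrps18c. In T2D dnMCUb minus control it gave -0.124 to 0.0319 for Mrpl12, -0.163 to 0.00355 for Mrpl58 and -0.0217 to 0.0434 for Mrps18c. The cause of these changes was not tested.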
